A study of Mus musculus with 13 samples.

Results

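The Snrpn-Ube3a cluster, the imprinted Prader-Willi/Angelman domain of mouse chromosome 7, was examined through 5 genes: Snrpn, Ndn, Magel2, Mkrn3 and Ube3a. They were chosen by name and are 5 of the 35976 genes in the count table. In these germ cells 3 of the 5 were measured well enough to test. Ube3a had counts in all 12 libraries, Ndn in all 12 and Mkrn3 in 11. Magel2 had counts in 1 library, and Snrpn was at 0 in every library. None of the 3 tested genes differed between Tet1 genotypes beyond the spread between libraries, in any of the 6 comparisons of genotypes.

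RNA was sequenced from E14.5 male primordial germ cells, from which sperm later derive. Cells were isolated by their Oct4-GFP reporter, a fluorescent protein driven by a germ cell gene, and RNA of 5000 cells was captured on oligo-dT beads, which enrich polyadenylated RNA. TET1 oxidises 5-methylcytosine in DNA, and embryos of 4 Tet1 genotypes were compared with 3 libraries each. All 4 carried the reporter used for sorting. KO is a Tet1 knockout. HxD is known as a catalytically dead form of the enzyme. V is known as a form that stops at 5-hydroxymethylcytosine, and WT is the wild type. The labels do not say whether replicates came from separate embryos or pools, so every p-value measures only the spread between these libraries, which may be technical.

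In the mouse, as in humans, most protein-coding genes of this domain are transcribed from the paternal chromosome alone. An imprinting control region at the Snrpn promoter carries DNA methylation on the maternal allele. Ube3a is the exception: in neurons it is expressed from the maternal allele, because a long antisense transcript that starts near Snrpn, Snhg14, silences the paternal copy. Primordial germ cells erase these marks before new ones are set according to sex, and TET1 is known to take part in that erasure. The read counts do not separate the parental alleles, so they give the total level of each gene and not its imprinting.

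The promoters differ in their content of CpG, the dinucleotide that carries the methylation on which TET1 acts. These promoter sequences, from RefSeq on GRCm38.p6, run from 250 bases before to 50 bases after the annotated start, with each CpG in capitals. They show the promoter of the control region, the Ndn promoter that shares a CpG-containing run with it, and the CpG-rich promoter of the gene with counts in all libraries and the narrowest test interval, Ube3a. The first lies at chr7:60005150-60005449 on the minus strand, the second at chr7:62348027-62348326 on the plus strand and the third at chr7:59228500-59228799 on the plus strand.
Snrpn and Snurf: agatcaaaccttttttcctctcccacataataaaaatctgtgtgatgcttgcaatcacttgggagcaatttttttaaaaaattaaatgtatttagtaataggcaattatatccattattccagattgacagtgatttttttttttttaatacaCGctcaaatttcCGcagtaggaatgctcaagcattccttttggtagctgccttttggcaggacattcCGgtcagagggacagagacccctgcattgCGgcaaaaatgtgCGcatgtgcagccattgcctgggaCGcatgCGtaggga
Ndn: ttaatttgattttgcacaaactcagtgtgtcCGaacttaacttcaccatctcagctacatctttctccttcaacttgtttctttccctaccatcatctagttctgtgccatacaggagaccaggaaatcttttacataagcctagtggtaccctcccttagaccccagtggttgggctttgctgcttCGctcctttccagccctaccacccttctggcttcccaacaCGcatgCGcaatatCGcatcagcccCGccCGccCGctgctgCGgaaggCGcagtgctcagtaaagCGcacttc
Ube3a: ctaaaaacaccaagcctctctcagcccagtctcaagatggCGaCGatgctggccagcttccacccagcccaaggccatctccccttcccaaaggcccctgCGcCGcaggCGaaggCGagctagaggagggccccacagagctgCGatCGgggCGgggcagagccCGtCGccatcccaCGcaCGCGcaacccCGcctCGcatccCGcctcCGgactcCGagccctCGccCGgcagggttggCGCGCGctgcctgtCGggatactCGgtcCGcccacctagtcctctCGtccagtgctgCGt

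The Snrpn start, which is shared with Snurf, held 7 CpGs. That is the median of the 32817 RefSeq promoters of the same length, of which 47.9% held fewer. Ndn held 11 CpGs (58.6% of promoters held fewer), Magel2 10 (56.6%), Mkrn3 15 (65.4%) and Ube3a 29 (87.1%). All 5 members matched an entry, and Snrpn has 4 annotated starts. The hexamer TGCCGC, the known recognition sequence of the imprint-protecting factor ZFP57, was searched on both strands. Of the 5 promoters it was found at the Snrpn and Snurf start, on the minus strand of the window at position -2 from the start, and 11.6% of all promoters hold it. The other annotated Snrpn starts did not hold this hexamer. The run CGCATGCG, which reads the same on both strands and was picked after the sequences were seen, occurred at position 37 of the Snrpn and Snurf promoter and at position -23 of the Ndn promoter. It occurred at all 4 annotated Snrpn starts and in 1.86% of all promoters, but not in the windows of Magel2, Mkrn3 or Ube3a. The 2 motifs did not overlap in the Snrpn window. A match describes letters and not a bound site.

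Library totals ran from 13584484 counts in V 3 to 29641963 in HxD 1, and 11529 genes had a count in WT 3, against 12100 to 15715 in the other libraries. WT 3 stood apart in one respect: of the genes averaging at least 8 CPM (a gene's reads scaled to the same total in each library), 104 were at 0 there, against 0 to 36 in the others. Tet1 itself averaged 213 CPM in KO and 608 CPM in WT, with a log2 fold change of -1.51 (SE 0.17, edgeR adjusted p = 1.4e-05), and the KO libraries did not overlap the other genotypes. Of 12 germ cell markers the summed level was 3502 to 3824 CPM in KO, 3328 to 4274 in HxD, 3811 to 4118 in V and 4623 to 4768 in WT. This gap was carried by Dazl, a germ cell RNA-binding protein gene, at 720.3 to 1071 CPM in KO, 576 to 944 in HxD, 672 to 1172 in V and 1605 to 1906 in WT. Without Dazl the other 11 summed to 2656 to 3067 CPM in KO, 2752 to 3331 in HxD, 2946 to 3139 in V and 2718 to 3041 in WT, and all genotypes overlapped. Single markers within that sum were separate from WT in some genotypes. Separation from WT in a given direction was found for 5.26% to 8.15% of all tested genes, depending on genotype and direction. Ddx4 had 465 to 591 CPM in KO, 473 to 683 in HxD and 613 to 874 in V, against 772 to 981 in WT, which V overlapped. Tfap2c went the other way, with 120 to 135 CPM in KO, 114 to 155 in HxD and 114 to 149 in V, against 48.2 to 96.3 in WT. Pou5f1 had 325 to 398 CPM in KO, 371 to 526 in HxD and 430 to 591 in V, against 299 to 341 in WT, which KO overlapped. Dnd1 was separate in KO alone (236 to 269 CPM, against 149 to 201 in WT). Prdm1 was separate in V alone and lower there (122 to 143 CPM, against 167 to 204 in WT). Of the 12 markers 11 were tested, a set that includes Dazl and leaves out Sox17. Of these, 6 had a positive log2 fold change in each mutant against WT, with medians of 0.14 for KO, 0.03 for HxD and 0.06 for V. By edgeR 1 of them was called lower in KO and 1 in HxD (adjusted p of 0.0094 and 0.0093), and 0 in V. Among all tested genes 0.218% were called in KO and 0.034% in HxD. The 8 Sertoli cell markers summed to 150 to 201 CPM in KO, 169 to 185 in HxD, 162 to 464 in V and 180 to 320 in WT. Most of this was Dmrt1, which germ cells also express (128 to 225 CPM), except in V 2, where Amh reached 216 CPM. The 5 endothelial markers summed to 121 to 280 CPM, nearly all of it Pecam1, with Emcn at 0 in all libraries. The 8 interstitial markers summed to at most 34.6 CPM, the 6 Leydig markers to at most 28.6 CPM with Lhcgr at 0 in all, the 5 macrophage markers to at most 19.4 CPM and the 5 erythroid markers to at most 13.5 CPM. The part of these marker levels in the results was not tested. In RNA from sorted pools, fewer cells of a type and less RNA per cell cannot be told apart.

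Ube3a encodes the E3 ubiquitin ligase whose loss from the maternal allele causes Angelman syndrome. It lies at chr7:59228750-59311536 on the plus strand (GRCm38, GENCODE annotation, 16 blocks of exons). Levels here are CPM after TMM scaling, a correction for differences in library composition. Ube3a had 139.9, 85.2 and 126 CPM in KO libraries 1 to 3 and 151, 129.7 and 95.5 CPM in HxD libraries. It had 83.4, 122 and 154 CPM in V libraries, against 145, 134 and 189 CPM in WT libraries. These values rest on 1478 to 4407 reads per library. WT 3 was the highest library and V 1 the lowest, and each mutant genotype overlapped WT: KO and HxD through replicate 1 and V through replicate 3.

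The mean Ube3a level was 117 ± 28.5 CPM in KO, 119.9 ± 35.5 CPM in V, 125 ± 27.8 CPM in HxD and 156 ± 29.1 CPM in WT (SD, n = 3 each). Genotypes were compared with edgeR's quasi-likelihood F-test, fitted to all 14702 genes that passed its expression filter, with p-values adjusted by Benjamini-Hochberg over those genes and a threshold of 0.05. For KO against WT the log2 fold change of Ube3a was -0.41 (SE 0.23, 95% interval -0.88 to 0.06), with an unadjusted p of 0.0842 and an edgeR adjusted p of 0.644. HxD against WT gave -0.31 (SE 0.23, -0.78 to 0.16, adjusted p = 0.740). V against WT gave -0.38 (SE 0.23, -0.85 to 0.09, adjusted p = 0.835). All 3 estimates were below 0, and they share the same WT libraries, so they are not separate observations. Without WT 3, the library with the most undetected genes, they were -0.25 in KO, -0.15 in HxD and -0.22 in V. As folds, the intervals ran from 0.544 to 1.04 for KO, from 0.582 to 1.11 for HxD and from 0.557 to 1.07 for V, all relative to WT.

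Between mutants the Ube3a estimates were smaller. The log2 fold change was 0.10 for HxD against KO (95% interval -0.37 to 0.57), 0.03 for V against KO (-0.44 to 0.50) and -0.06 for V against HxD (-0.53 to 0.40), each with an edgeR adjusted p of 1. In the order of their means, no neighbouring pair of genotypes differed beyond its spread. Of the 3 tested members, Ube3a had the narrowest intervals.

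**Figure D1:**
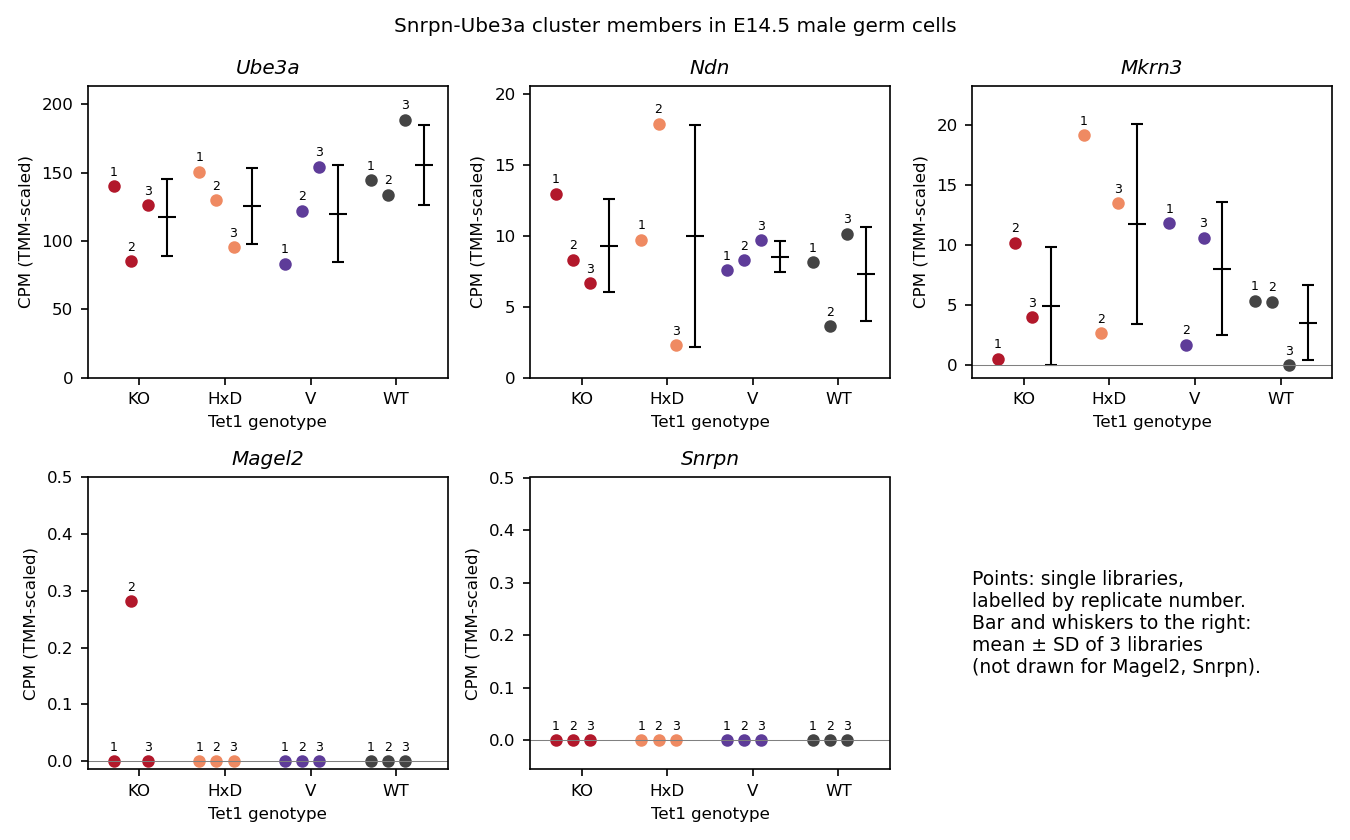
CPM after TMM scaling of the 5 genes (vertical axes, linear, one scale per gene) in the 3 libraries of each Tet1 genotype (horizontal axes), with points numbered by replicate and bars giving mean ± SD where drawn. Mutant and WT libraries overlap for Ube3a, Ndn and Mkrn3, Magel2 is above 0 in KO 2 alone at 0.282 CPM, and Snrpn is at 0 in all 12 libraries.

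Ndn encodes necdin, a growth-suppressing protein of the MAGE family that is best known from neurons. It is a gene of 1 exon at chr7:62346569-62350262 on the plus strand. Ndn had 12.9, 8.32 and 6.64 CPM in KO libraries and 9.71, 17.9 and 2.26 CPM in HxD libraries. It had 7.56, 8.28 and 9.69 CPM in V libraries, against 8.12, 3.64 and 10.1 CPM in WT libraries. HxD held both the highest library (HxD 2, 418 reads) and the lowest (HxD 3, 35 reads), while the V libraries lay close together. All genotypes overlapped.

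From high to low the mean Ndn level was 9.95 ± 7.82 CPM in HxD, 9.30 ± 3.26 in KO, 8.51 ± 1.08 in V and 7.29 ± 3.32 in WT (SD, n = 3 each). The log2 fold change against WT was 0.35 for KO (SE 0.91, 95% interval -1.50 to 2.20, edgeR adjusted p = 1). For HxD it was 0.45 (SE 0.91, -1.40 to 2.30, adjusted p = 0.991), and for V it was 0.22 (SE 0.91, -1.63 to 2.07, adjusted p = 1). No neighbours in the order differed beyond their spread, and the intervals still allow folds relative to WT of 0.353 to 4.60 in KO and 0.378 to 4.93 in HxD. Between mutants the Ndn estimates were 0.10 for HxD against KO (-1.75 to 1.95), -0.13 for V against KO (-1.98 to 1.72) and -0.23 for V against HxD (-2.08 to 1.62), each with an adjusted p of 1.

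Mkrn3 encodes a makorin RING-finger protein that in humans acts as a brake on the onset of puberty. It is a gene of 1 exon at chr7:62417593-62420139 on the minus strand. Mkrn3 had 0.574, 10.2 and 4.01 CPM in KO libraries and 19.2, 2.696 and 13.5 CPM in HxD libraries. It had 11.9, 1.72 and 10.6 CPM in V libraries, against 5.41, 5.32 and 0 CPM in WT libraries. Each mutant genotype held at least 1 library below the WT maximum, so none was separate from WT. WT 3 had no Mkrn3 read, where a count of 0 allows up to 0.131 CPM (3 reads, counting error only), and it was also the library with the most undetected genes.

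The range inside genotypes was wide: the highest Mkrn3 library exceeded the lowest 17.8-fold in KO (13 and 218 reads at the extremes), 7.11-fold in HxD and 6.89-fold in V. From high to low the mean was 11.8 ± 8.37 CPM in HxD, 8.07 ± 5.53 in V, 4.94 ± 4.90 in KO and 3.58 ± 3.10 in WT (SD, n = 3 each). The log2 fold change against WT was 1.72 for HxD (SE 1.34, 95% interval -1.02 to 4.46, edgeR adjusted p = 0.772), which as a fold is 3.29 with an interval of 0.492 to 22.0. For V it was 1.17 (SE 1.33, -1.53 to 3.88, adjusted p = 1), and for KO it was 0.47 (SE 1.31, -2.21 to 3.14, adjusted p = 1). Without WT 3 the estimates against WT were 1.13 in HxD, 0.59 in V and -0.12 in KO, and without KO 2 the estimate in KO was -0.64, so its sign rested on single libraries. Between mutants Mkrn3 gave 1.25 for HxD against KO (-1.45 to 3.96), 0.71 for V against KO (-1.97 to 3.39) and -0.55 for V against HxD (-3.22 to 2.13), each with an adjusted p of 1. No neighbours in the order differed beyond their spread. The interstitial marker sums, 5.42 to 28.8 CPM in KO, 17.6 to 22.9 in HxD, 1.81 to 34.6 in V and 6.88 to 13.6 in WT, also varied between libraries at this level, and their part in the Mkrn3 values was not tested.

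**Figure D2:**
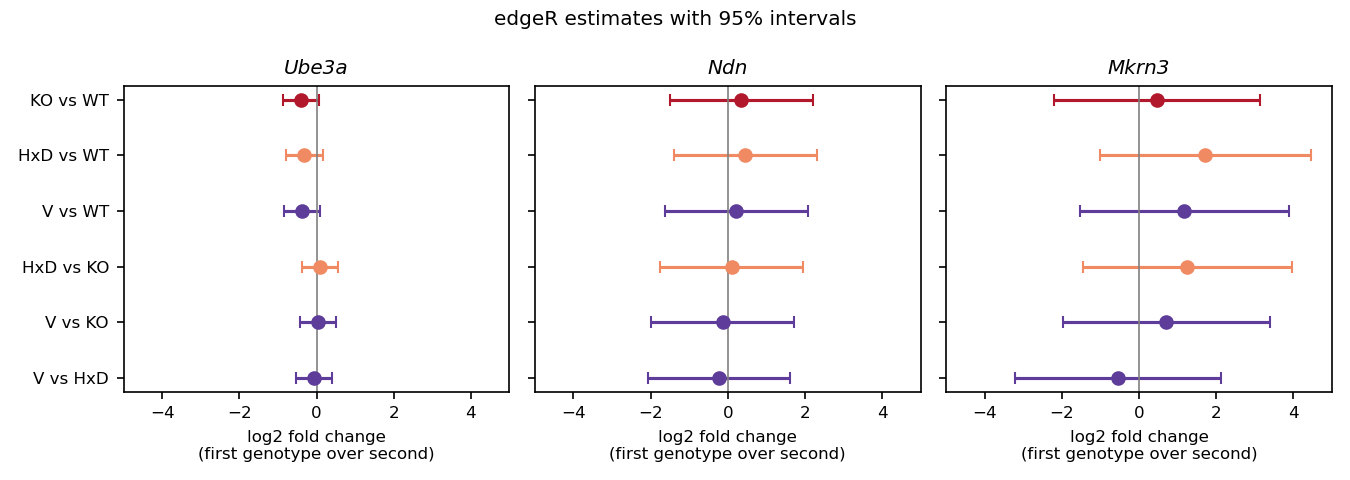
Log2 fold changes (horizontal axes, first genotype over second) of Ube3a, Ndn and Mkrn3 for the 6 comparisons of genotypes (rows), with points for edgeR estimates and whiskers for 95% intervals. Every interval spans 0. Those of Ube3a are the narrowest, for example -0.88 to 0.06 in KO against WT, and those of Mkrn3 the widest, for example -1.02 to 4.46 in HxD against WT.

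Magel2 encodes a MAGE protein that, with TRIM27 and USP7, promotes recycling of membrane proteins through the retromer and the WASH complex. It is a gene of 1 exon at chr7:62377010-62381640 on the plus strand. Magel2 had 6 reads in KO 2, a level of 0.282 CPM, and 0 reads in the other 11 libraries. It did not pass the expression filter, and it gives no fold between genotypes. A count of 0 allows up to 0.103 to 0.220 CPM, depending on the library.

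Snrpn encodes SmN, a spliceosomal protein that takes the place of SmB in neurons, and its transcript also carries the short reading frame of Snurf. The gene spans chr7:59982495-60140219 on the minus strand. Snrpn had 0 reads in all 12 libraries, among 261585297 counts in all, which allows up to 0.103 to 0.220 CPM in a single library. Snurf, Ipw and Snord116 were also at 0 throughout. Snord116 is a small nucleolar RNA, and the part of the capture on oligo-dT beads in its 0 was not tested. In the GENCODE annotation of GRCm38, 34.14% of the 2159 exonic bases of Snrpn are shared with exons of other genes, among them Snurf with 10% and Gm38393 with 27.28%, and the exons of Snurf are shared entirely. In RefSeq on the same build, the whole span of Snrpn lies inside that of Snhg14 on the same strand. Counters of reads commonly discard reads that fall in exons of more than 1 gene. The sources used here do not give the annotation or the strand setting behind these counts, and whether they bear on the 0 for Snrpn was not tested. Ndn, Magel2 and Mkrn3 share no exonic base with another gene in GENCODE.

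No member comparison passed the threshold: 0 of 18 tests over the 3 tested genes by edgeR, 0 at an unadjusted p under 0.05, and 0 by DESeq2, whose smallest adjusted p among them was 0.54. Calls were rare among all 14702 tested genes as well. The share called by edgeR was 0.218% for KO against WT (32 genes), 0.034% for HxD against WT (5 genes), 0% for V against WT, 0.0068% for HxD against KO (1 gene), 0.0204% for V against KO (3 genes) and 0% for V against HxD. At an unadjusted p under 0.05 in edgeR there were 1220 genes (8.30%) for KO, 1211 (8.24%) for HxD and 890 (6.05%) for V against WT. Between mutants there were 686 (4.67%) for HxD against KO, 603 (4.10%) for V against KO and 745 (5.07%) for V against HxD. DESeq2 called 239, 199 and 84 genes against WT, and 87, 61 and 92 between mutants in the same order. A count of 0 among the members is near these shares and is no result about the members. The median log2 fold change of all tested genes lay between -0.02 and 0.02 in every comparison, and the median SE against WT was 0.51 for KO, 0.50 for HxD and 0.51 for V, below the SE of Ndn and Mkrn3 and above that of Ube3a.

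The members also differed in how far replicates of one genotype spread. The pooled SD within genotypes of log2(CPM + 0.5) was 0.36 for Ube3a, against a median of 0.25 over the 1706 genes of a similar mean level, of which 88.2% had a smaller SD. For Mkrn3 it was 1.65, against a median of 1.15 over 1123 genes of similar level, of which 89.9% had a smaller SD. For Ndn it was 0.82, against a median of 0.998 over 1207 genes, of which 35.6% had a smaller SD. Ube3a and Mkrn3 thus varied more between replicates than most genes of their level, and Ndn did not. These are descriptions of the libraries, with no test.

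**Figure D3:**
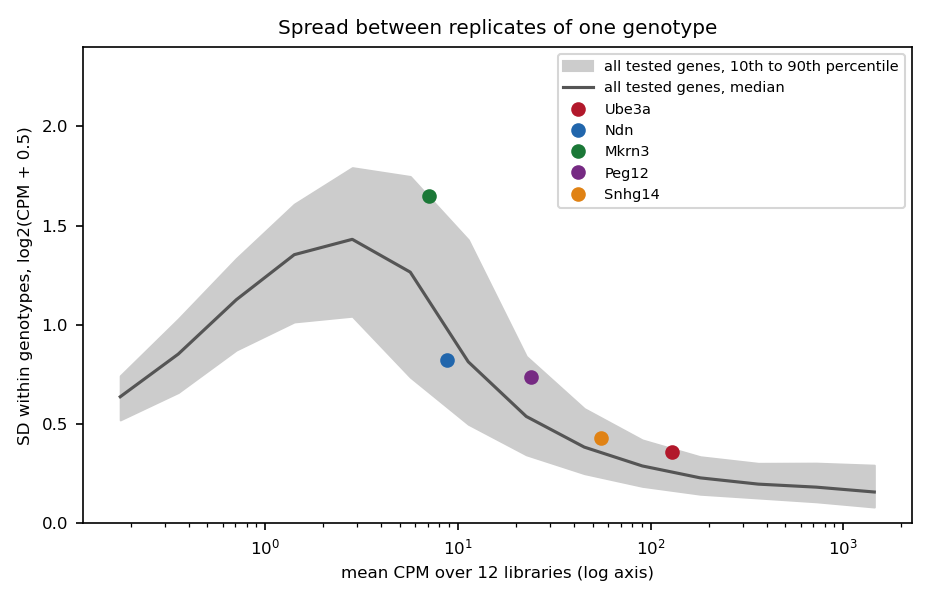
Pooled within-genotype SD of log2(CPM + 0.5) (vertical axis) against mean CPM over the 12 libraries (horizontal, log axis), with the line for the median and the band for the 10th to 90th percentile of all tested genes. Ndn lies below the median of its level, at an SD of 0.82, and Ube3a (0.36) and Mkrn3 (1.65) lie near the upper edge of the band.

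Of 13 other transcripts listed for the domain, 10 were in the table and 4 were tested: Peg12, Snhg14, Snord64 and A230056P14Rik, the last of which is annotated beside Nipa1 and not within the imprinted interval. Of the 4, 0 were called in any comparison. Peg12 and Snhg14, which had the most CPM, are given in full. Snord64 and A230056P14Rik had counts in 4 and 5 of the 12 libraries, and 0 in all V libraries. The median log2 fold change of the 4 against WT was 0.05 in KO and 0.18 in HxD, beside 0.00 and -0.02 over all tested genes, and none is given for V, where it rests on the transcripts at 0.

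Peg12, also known as Frat3, is a paternally expressed gene without introns at chr7:62461871-62464510, related to a family of GSK3-binding proteins. It had 24.9, 27.4 and 32.03 CPM in KO libraries and 31.9, 27.5 and 21.4 CPM in HxD libraries. It had 34.6, 29.9 and 5.50 CPM in V libraries, against 19.7, 13.96 and 18.0 CPM in WT libraries. Every KO and HxD library was above every WT library, and V overlapped WT through V 3. Such a separation with the mutant higher was found for 8.13% of tested genes in KO, 5.26% in HxD and 5.75% in V, each against WT. The log2 fold change was 0.71 in KO (SE 0.49, edgeR adjusted p = 0.754), 0.64 in HxD (SE 0.49, adjusted p = 0.759) and 0.44 in V (SE 0.49, adjusted p = 1), all against the same WT libraries, and none passed the threshold.

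Snhg14 is the long noncoding host transcript of the domain's small nucleolar RNAs and runs antisense to Ube3a, at chr7:59307924-59975759 on the minus strand. It had 40.7, 65.6 and 61.1 CPM in KO libraries and 45.7, 65.5 and 44.6 CPM in HxD libraries. It had 87.2, 54.1 and 55.3 CPM in V libraries, against 62.0, 55.4 and 28.3 CPM in WT libraries. V 1 was the highest library and WT 3 the lowest, and all genotypes overlapped. The log2 fold changes against WT were 0.20 in KO, 0.10 in HxD and 0.43 in V (SE 0.31 each, edgeR adjusted p of 0.994, 1 and 0.892).

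Across the 12 libraries, Ube3a and Snhg14 levels ran in opposite directions: the library lowest in Ube3a (V 1) was the highest in Snhg14, and the library highest in Ube3a (WT 3) was the lowest in Snhg14. Pearson's r of log2(CPM + 0.5) was -0.66 (two-sided permutation p = 0.0169) and Spearman's rho was -0.56 (permutation p = 0.0630). Over the 15 relations computed among members, Peg12, Snhg14 and the number of genes with a count, the adjusted values were 0.253 and 0.437, so the relation did not pass. Without KO 2 and V 1, the libraries farthest from the median of Ube3a, r was -0.43 (n = 10), and after subtracting the means of the genotypes it was -0.62. Of 9249 genes averaging at least 8 CPM, 344 (3.72%) had a lower r with Ube3a than Snhg14 did, and the median over all of them was -0.05. With the number of genes with a count per library, r was -0.39 for Ube3a and 0.48 for Snhg14, and the part of this number in the relation was not tested. In GENCODE 5624 (27.27%) of the 20626 exonic bases of Ube3a are shared with exons of other genes. Among these, 1803 bases (8.741%) are shared with Snhg14, 2025 with Gm44560 and 1796 with 9330162G02Rik, all on the other strand. Without a known strand setting, reads from these bases cannot be told apart.

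None of the other 14 relations passed either. Ndn and Ube3a gave r = 0.37 (rho 0.49, permutation p of 0.240 and 0.112, adjusted 0.450 and 0.437), Ndn and Mkrn3 gave -0.40 (rho -0.42, permutation p of 0.169 and 0.175, adjusted 0.423 and 0.437). Mkrn3 and Snhg14 gave r = 0.58 (rho 0.29, permutation p of 0.0635 and 0.370, adjusted 0.317 and 0.612), which became -0.17 without KO 1 and WT 3 and so rested on those libraries.

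**Figure D4:**
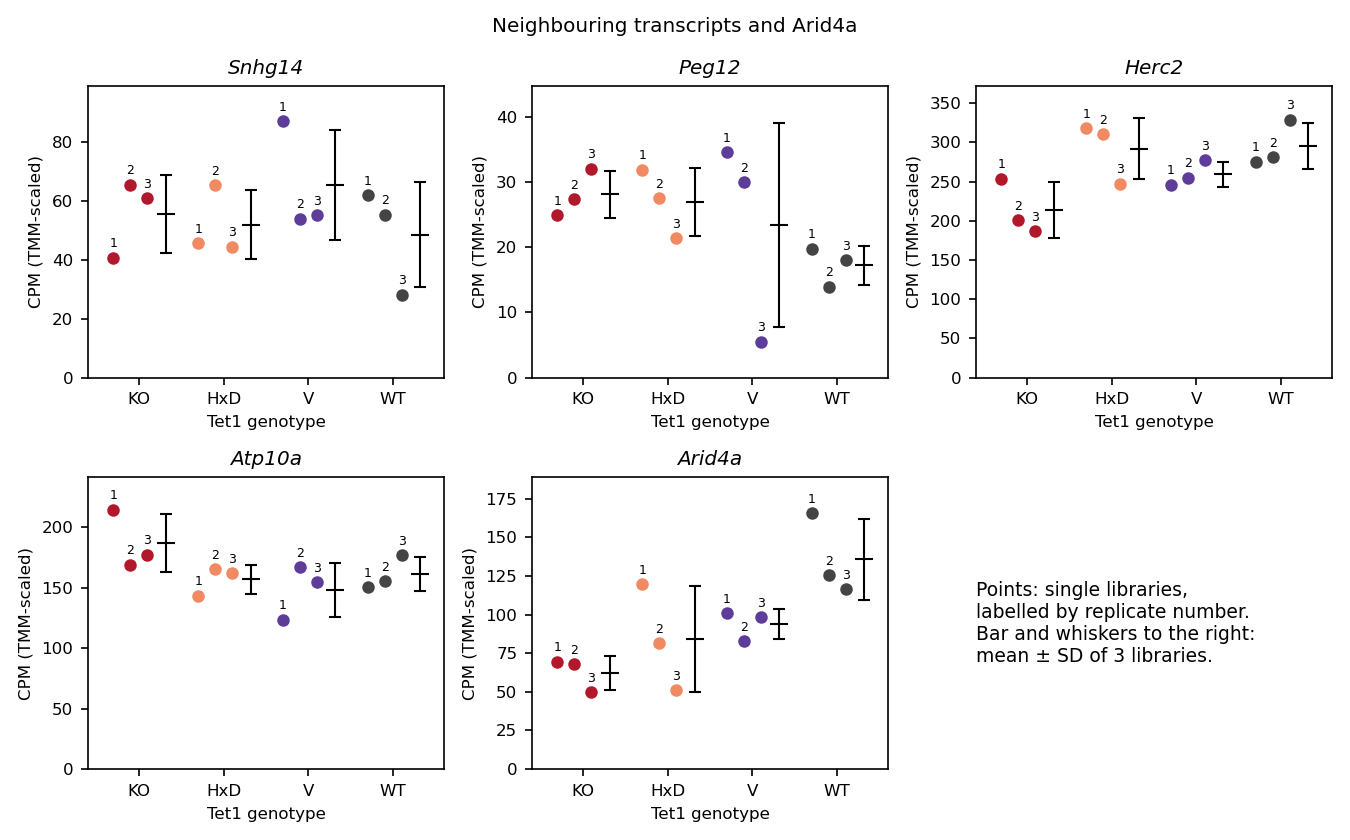
CPM after TMM scaling (vertical axes, linear, one scale per gene) of Snhg14, Peg12, Herc2, Atp10a and Arid4a in the 3 libraries of each Tet1 genotype (horizontal axes), with points numbered by replicate and bars giving mean ± SD. Peg12 is higher in every KO and HxD library than in WT but not in V 3 (5.50 CPM), and Arid4a is below every WT library in all KO and V libraries.

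Genes outside the imprinted interval were read in the same way. Of 16 flanking genes on chromosome 7, 11 were tested and 0 were called in any comparison. The median log2 fold change against WT of the 11 was 0.09 in KO, -0.04 in HxD and -0.12 in V, beside 0.00, -0.02 and 0.01 over all tested genes. Atp10a, a phospholipid flippase gene next to Ube3a, had log2 fold changes of 0.22 in KO, -0.04 in HxD and -0.12 in V against WT (SE 0.18 each), none of them called. Herc2, which encodes a giant HECT-domain ligase known to bind and stimulate UBE3A, had 254, 201 and 186 CPM in KO libraries and 318, 310.2 and 247 CPM in HxD libraries. It had 246, 255 and 277 CPM in V libraries, against 275, 281 and 329 CPM in WT libraries. Every KO library was below every WT library, a separation found with KO lower for 8.15% of tested genes. The log2 fold change of Herc2 in KO against WT was -0.47 (SE 0.17, unadjusted p = 0.00898, edgeR adjusted p = 0.372), and it was -0.02 in HxD and -0.19 in V.

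Genes related to the members' proteins, or known to work with them, were read as lists. Of the 7 Sm proteins that share SmN's ring in the spliceosome, 0 of 7 were called against WT, with medians of 0.12 in KO, 0.13 in HxD and 0.27 in V. Snrpb, which encodes SmB, averaged 450 ± 60.1 CPM in KO, 433 ± 99.1 in HxD, 471 ± 69.8 in V and 454 ± 16.4 in WT (SD, n = 3 each). Whether the 0 counted for Snrpn reflects its RNA level or the counting of shared exons was not tested, so the levels of Snrpb and Snrpn are not compared. Snrpd3 averaged 211 CPM in KO, 221 in HxD, 204 in V and 222 in WT. Of 16 genes of the MAGE family and of MAGEL2's partners, 0 were called by edgeR, and the medians were -0.02, -0.07 and -0.06 in KO, HxD and V. Maged1, a ubiquitous MAGE gene, averaged 674 CPM in KO, 657 in HxD, 679.7 in V and 709.6 in WT. Usp7, the deubiquitinase that works with MAGEL2, averaged 499 CPM in KO, 493 in HxD, 468 in V and 583 in WT. DESeq2 called 1 gene of this list, Maged2 in KO against WT (log2 fold change -0.98 and adjusted p = 0.297 in edgeR, adjusted p = 0.0364 in DESeq2), named here after its values were seen.

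Mkrn1 and Mkrn2 encode the makorin relatives of MKRN3. Mkrn1 averaged 361 CPM in KO, 361 in HxD, 419 in V and 373 in WT. Mkrn2 averaged 55.1 CPM in KO, 47.4 in HxD, 60.1 in V and 57.5 in WT. Neither was called against WT, and their log2 fold changes lay between -0.28 and 0.17. Of 9 partners and HECT relatives of UBE3A, 0 were called, with medians of -0.14 in KO, -0.02 in HxD and -0.11 in V. Rad23b, a proteasome shuttle factor, averaged 429 CPM in KO, 446 in HxD, 414 in V and 415 in WT.

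Among 12 factors that maintain or establish imprints, edgeR called 1: Arid4a, lower in KO than in WT. Over all tested genes 0.218% (32 genes) were called in KO against WT. The list was chosen with earlier results of these data known. ARID4A is a chromatin protein that in mice is known to affect the epigenetic marks of this very domain, and its gene lies outside it, at chr12:71015990-71098592. Arid4a had 69.5, 67.8 and 49.6 CPM in KO libraries and 119.8, 81.5 and 51.1 CPM in HxD libraries. It had 101, 82.96 and 98.5 CPM in V libraries, against 166, 126 and 117 CPM in WT libraries. All KO and all V libraries were below all WT libraries, while HxD 1 overlapped WT. Among all tested genes, 8.15% were separate from WT and lower in KO, 7.22% in HxD and 6.06% in V, each by the same rule.

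The log2 fold change of Arid4a in KO against WT was -1.13 (SE 0.25, edgeR adjusted p = 0.0461, DESeq2 adjusted p = 0.00214). In HxD it was -0.69 (SE 0.25, edgeR adjusted p = 0.465) and in V -0.53 (SE 0.25, edgeR adjusted p = 0.818). The call in KO was close to the threshold. It was lost without KO 3 (log2 fold change -0.99, adjusted p = 0.169), without WT 1 (-0.96, adjusted p = 0.163), under a stricter expression filter (-1.14, adjusted p = 0.114), with KO and WT alone in the fit (-1.13, adjusted p = 0.0633) and with WT 3 and V 3 set aside (-1.23, adjusted p = 0.0970). It was kept under the other 14 alternatives, with edgeR or DESeq2 adjusted p from 0.000512 without a filter to 0.0429 without KO 1. Those that left out an HxD or V library kept every KO and WT library. Their log2 fold changes, -1.13 to -1.12, could hardly move, so they say little about how firm the call is. The difference between KO and the other mutants was not called: 0.44 for HxD against KO (adjusted p = 0.884) and 0.59 for V against KO (adjusted p = 1). The sum of the 12 germ cell markers was 3502 to 3824 CPM in KO and 4623 to 4768 in WT, with no overlap. Without Dazl the sum overlapped between KO and WT (2656 to 3067 CPM in KO, 2718 to 3041 in WT). The part of these marker levels in the Arid4a values was not tested.

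By DESeq2, Uhrf1 was called beside Arid4a in KO and alone among the 12 factors in HxD. It is named after its values were seen. Over all tested genes, DESeq2 called 239 in KO and 199 in HxD, each against WT. UHRF1 guides the maintenance methyltransferase DNMT1 to newly copied DNA. Uhrf1 had 35.5, 70.1 and 43.6 CPM in KO libraries and 71.4, 41.3 and 42.6 CPM in HxD libraries. It had 105, 54.4 and 94.0 CPM in V libraries, against 103, 117 and 124 CPM in WT libraries. All KO and HxD libraries were below all WT libraries, and V overlapped WT. Such a separation with the mutant lower was found for 8.15% of tested genes in KO and 7.22% in HxD. In edgeR the log2 fold change was -1.21 in KO (SE 0.28, adjusted p = 0.0712), -1.15 in HxD (SE 0.28, adjusted p = 0.193) and -0.44 in V (SE 0.28, adjusted p = 0.854), and in DESeq2 the adjusted p was 0.00495 in KO and 0.0132 in HxD. The median log2 fold change of the 12 factors was -0.20 in KO, -0.11 in HxD and -0.09 in V. ZFP57 and TRIM28 protect methylated imprinting control regions, and neither of their genes was called. Trim28 had 1757 to 2257 CPM over the 12 libraries. Zfp57 had counts in 8 of the 12 libraries and at most 7.99 CPM. Its mean was 3.10 CPM in KO, 3.11 in HxD, 2.34 in V and 0.36 in WT, where 2 libraries were at 0. Each mutant genotype overlapped WT in Zfp57.

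For each tested member the 3 genes with the most similar profile over the 12 libraries were taken, by Pearson's r of log2(CPM + 0.5) among 8945 named genes averaging at least 8 CPM. For Ube3a these were Ascc3 (r = 0.96, rho = 0.92), Taf2 (0.95 and 0.88) and Xpo1 (0.93 and 0.85). For Mkrn3 they were Map4k2 (r = 0.91, rho = 0.89), Rimkla (0.90 and 0.90) and Fam98b (0.90 and 0.83). For Ndn they were Sdccag8 (r = 0.83, rho = 0.58), Sema4d (0.83 and 0.67) and Kdm7a (0.81 and 0.66). The highest r picked from 8945 genes over 12 libraries is large by selection, and the points share library depth and quality. No member was among another member's 3 nearest genes.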

How the data were processed

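RNA-seq libraries of E14.5 male germ cells from 4 Tet1 genotypes were analysed, 3 per genotype. The table that the authors deposited holds raw counts, 1 whole number per symbol and library. STAR 2.7.10b, featureCounts 2.0.3, SAMtools 1.9, Trim Galore 0.6.7 and FastQC are named in the submitters' processing notes, which list the builds GRCm39 and mm10 without saying what each was used for. The sources used here do not give the annotation, strand setting or read filters. A further WT sample in the labels was not analysed here, and 1 column that names no sample was not used.

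With R 4.3.3 and edgeR 4.0.16, genes were filtered with the default expression filter (14702 of 35976 kept), scaled by TMM and fitted with genotype as the only term in all 12 libraries. Tests were two-sided quasi-likelihood F-tests with Benjamini-Hochberg adjustment over all tested genes and a threshold of 0.05. The common biological coefficient of variation was 0.932. Log2 values used a pseudocount of 0.5 CPM, and correlation p-values came from permutation. The scripts' statistics were tested on simulated data. Floors are 3 counts per library and cover counting error only. Annotated positions and exon overlaps are from GENCODE vM21 (GRCm38), and promoters and gene spans from RefSeq (GRCm38.p6).

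The members and gene lists were chosen with earlier results of these data known. All 5 members are named. Of the domain and flanking lists, and of the other lists, members called against WT are named, else the 2 with the most CPM, and for likeness the 3 genes with the highest r. Alternatives were RLE scaling, DESeq2 1.42.0, no expression filter, a stricter filter (at least 8 CPM in at least 3 libraries), only the 2 genotypes compared, a replicate block, WT 3 and V 3 set aside together, and each library left out in turn. No pairing by replicate number was seen over all tested genes: deviations of the 18 same-numbered pairs had correlations of -0.06 to 0.09. These correlations cannot show whether same-numbered libraries shared a batch or litter.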

Additional observations from a re-analysis of the deposited data

How the results depend on the processing

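No member passed the threshold under any of the 342 alternative values of the 18 member comparisons, and 16 of the values changed sign. Leaving out a library of a genotype not compared could hardly move an estimate. The share of changed signs therefore understates how far the signs depend on single libraries. With WT 3 and V 3 set aside, the log2 fold change was -0.12 for Mkrn3 in KO against WT and -0.19 for Ube3a in V against KO. Leaving out each library in turn, the log2 fold change ran from -0.64 to 0.99 for Mkrn3 in KO against WT (below 0 without KO 2 or WT 3). For Ndn it ran from -0.28 to 0.93 in HxD against WT (below 0 without HxD 2), from -0.10 to 0.53 in V against WT (below 0 without WT 2), from -0.63 to 0.57 in HxD against KO (below 0 without KO 3 or HxD 2), from -0.32 to 0.19 in V against KO (above 0 without KO 1) and from -0.70 to 0.50 in V against HxD (above 0 without HxD 2). For Ube3a it ran from -0.087 to 0.26 in HxD against KO, from -0.19 to 0.24 in V against KO and from -0.28 to 0.14 in V against HxD. Ube3a stayed below WT under every alternative, with -0.56 to -0.23 in KO, -0.47 to -0.14 in HxD and -0.60 to -0.16 in V when a library was left out. Mkrn3 stayed above WT in HxD (1.13 to 2.19) and V (0.59 to 1.65) in the same way. The cause of these shifts was not tested, beyond the fewer libraries in each fit.

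The number of genes called for KO, HxD and V against WT was 32, 5 and 0, against 239, 199 and 84 by DESeq2, 148, 67 and 32 without a filter, 14, 1 and 0 under the stricter filter, 12, 2 and 0 with only the 2 genotypes compared, and 11, 2 and 0 with WT 3 and V 3 set aside. For HxD against KO, V against KO and V against HxD it was 1, 3 and 0, against 87, 61 and 92 by DESeq2 and 8, 21 and 5 without a filter. For V against KO it was 1 under the stricter filter and 0 with only the 2 genotypes compared. Leaving out each library in turn, it ran from 15 (without WT 1) to 127 (without V 1) for KO against WT, from 1 (without HxD 3) to 47 (without HxD 1) for HxD against WT and from 0 to 10 (without WT 2) for V against WT. Between mutants it ran from 1 to 14 for HxD against KO and 0 to 11 for V against HxD, both highest without HxD 1, and from 2 to 18 (without V 2) for V against KO. With the replicate block it was 104, 45 and 8 against WT and 8, 16 and 2 between mutants; the block called no member, 4 of 12 libraries correlated best with a library of their own number, and no same-numbered pair was above 0.1. Without a filter Magel2 entered the fit (4.11 in KO against WT, SE 3.22, adjusted p = 0.691), a fitted value and no bound, and Snrpn entered none. The spread between libraries limits Ndn and Mkrn3.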
